A study of Mus musculus with 9 samples.

Results

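Cell division genes, a set of 35 genes for cyclins, cyclin-dependent kinases, replication factors, mitotic proteins and cell cycle inhibitors, were followed in the open chromatin of mouse CD8 T cells. The measurement was ATAC-seq, in which the Tn5 transposase cuts accessible DNA and a peak caller lists the places with more cuts than their surroundings. The cells studied are called P14, and their transgenic T cell receptor sees the GP33-41 peptide of lymphocytic choriomeningitis virus (LCMV) on H-2Db. They came as naive, CD44-negative and GFP-positive cells from TCF-1-GFP reporter P14 mice, and 500000 of them were transferred into C57BL/6 mice that had received 500000 B16.F10 melanoma cells expressing the LCMV glycoprotein (B16.Gp) 8 days before. CD45.1+ CD44+ CD8 T cells, labelled wild type, were sorted from the tumor-draining lymph nodes 4, 8 or 21 days after the transfer. Each day had 3 peak lists, each from a library of 50000 cells, and all 3 groups shared the tumor, the reporter and the sort, so no group without a tumor enters these comparisons. The sources do not say whether the lists of a day came from separate mice, so p-values measure the spread between these lists, which may be technical.

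Members were the regions at these 35 loci. The peaks of all 9 lists were merged wherever they shared at least 1 base, which gave 62963 regions on chromosomes 1 to 19 and X. A region belonged to a gene when it overlapped the gene's body on mm10, or when the nearest end of a protein-coding gene, at most 100 kb away, was that gene's. This gave 141 regions for the 35 genes, out of 21631 protein-coding genes in all. The regions were picked by gene name and position, and the list of genes was drawn up with earlier results of these data known.

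Cells divide in an ordered cycle. D-type cyclins with Cdk4 or Cdk6 inactivate the retinoblastoma protein (Rb1), which frees E2F factors to switch on genes for DNA replication, and cyclin E with Cdk2 carries the cell into S phase. Genes for mitosis are switched on later, through the B-Myb and Foxm1 branch of the program, and many of their promoters carry a CCAAT box bound by NF-Y and a cell cycle homology region (CHR) bound by the MuvB complex. Activated CD8 T cells divide rapidly after they meet antigen, and resting memory-like cells seldom divide. Accessibility of a promoter is not transcription, and promoters of cycling genes can be open in resting cells.

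The day 4 lists were shorter than the others, and this bears on every count below. They called 17979 to 20708 of the regions, the day 8 lists 45564 to 49043 and the day 21 lists 44517 to 50090. The smallest local background behind a list's peaks, a stand-in for its depth, was 2.62 to 3.38 tags on day 4, 2.14 to 2.63 on day 8 and 2.33 to 3.08 on day 21. The 10 CD8 T cell marker genes all had called regions in each list, 23 to 29 of their 89 regions on day 4, 64 to 67 on day 8 and 64 to 71 on day 21. Markers of other cells were called more often later as well. The 6 endothelial and stromal markers had 2 to 4, 20 to 24 and 20 to 22 of 33 regions called on days 4, 8 and 21, the 6 B cell markers 0 to 1, 11 to 12 and 10 to 14 of 16, the 6 myeloid markers 6, 16 and 14 to 17 of 19, the 3 CD4 T cell markers 1 to 2, 7 to 8 and 6 of 8, and the 6 melanoma markers 4 to 6, 8 to 9 and 10 to 12 of 13. The melanoma markers include Pmel, and 1 Pmel region is also the Cdk2 start region, called in all 9 lists. No list called a region at Foxp3, Ms4a1, Lyz2, Tyr or Sox10. The part of list length and of other cells in the results was not tested. In such bulk lists, fewer cells with an open region and a less open region in each cell cannot be told apart.

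The promoters shown here belong to members whose start region changed its rank or was missing on a day. RefSeq (GRCm38.p6, the assembly of mm10) gave start sites for 29 of the 35 genes; Ccnd2, Ccne2, Ccna2, Foxm1, Aurkb and Rb1 had no entry. Each sequence runs 5′ to 3′ on the gene's strand and ends just before the first transcribed base, with 2 exceptions: Mki67 ends before the outermost annotated end of the gene, and the Cdk2 stretch lies farther upstream, around its E2F match. Capitals mark matches, on either strand, to CHR (TTTGAA or TTCGAA), E2F (TTTCCCGC, TTTGGCGC, TTTCGCGC or TTTGCCGC) and CCAAT. No searched motif contains another. The Cdk2 stretch is limited to 30 bases because the Pmel gene overlaps it. The windows are Cdk2 at chr10:128705173-128705202 (minus strand), Mcm2 at chr6:88898781-88899030 (minus), Ccnb2 at chr9:70421555-70421804 (minus), Kif11 at chr19:37376132-37376381 (plus), Mki67 at chr7:135716451-135716629 (minus), Cdk4 at chr10:127063285-127063534 (plus), Cdkn1b at chr6:134920151-134920400 (plus) and E2f2 at chr4:136172024-136172273 (plus).
Cdk2: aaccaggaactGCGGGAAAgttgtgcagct
Mcm2: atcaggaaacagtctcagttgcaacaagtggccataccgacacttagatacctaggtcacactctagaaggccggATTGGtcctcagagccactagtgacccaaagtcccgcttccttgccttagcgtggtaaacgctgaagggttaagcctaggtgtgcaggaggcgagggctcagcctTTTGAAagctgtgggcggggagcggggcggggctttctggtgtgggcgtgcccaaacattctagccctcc
Ccnb2: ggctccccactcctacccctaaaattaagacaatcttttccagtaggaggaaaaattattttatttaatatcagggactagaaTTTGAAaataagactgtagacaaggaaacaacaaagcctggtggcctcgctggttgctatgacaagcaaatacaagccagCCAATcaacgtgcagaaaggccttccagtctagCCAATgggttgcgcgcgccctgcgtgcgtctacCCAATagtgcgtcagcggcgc
Kif11: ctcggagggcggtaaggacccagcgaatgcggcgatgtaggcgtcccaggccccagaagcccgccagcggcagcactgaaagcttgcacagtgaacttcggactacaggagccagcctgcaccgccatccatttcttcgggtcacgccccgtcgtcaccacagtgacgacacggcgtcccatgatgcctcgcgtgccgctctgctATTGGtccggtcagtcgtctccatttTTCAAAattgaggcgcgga
Mki67: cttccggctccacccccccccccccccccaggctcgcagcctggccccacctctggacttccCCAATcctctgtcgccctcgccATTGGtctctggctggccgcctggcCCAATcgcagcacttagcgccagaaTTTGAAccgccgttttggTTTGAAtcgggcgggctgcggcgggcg
Cdk4: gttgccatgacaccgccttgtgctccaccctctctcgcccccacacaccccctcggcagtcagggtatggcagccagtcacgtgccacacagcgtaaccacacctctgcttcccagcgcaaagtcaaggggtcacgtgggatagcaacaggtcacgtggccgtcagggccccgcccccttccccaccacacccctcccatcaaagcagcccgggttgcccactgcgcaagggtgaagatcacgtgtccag
Cdkn1b: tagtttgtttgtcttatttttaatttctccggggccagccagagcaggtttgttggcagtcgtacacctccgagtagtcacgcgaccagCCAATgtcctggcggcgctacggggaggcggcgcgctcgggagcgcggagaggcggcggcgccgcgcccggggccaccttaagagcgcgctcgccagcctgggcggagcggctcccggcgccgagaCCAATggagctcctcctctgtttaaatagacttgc
E2f2: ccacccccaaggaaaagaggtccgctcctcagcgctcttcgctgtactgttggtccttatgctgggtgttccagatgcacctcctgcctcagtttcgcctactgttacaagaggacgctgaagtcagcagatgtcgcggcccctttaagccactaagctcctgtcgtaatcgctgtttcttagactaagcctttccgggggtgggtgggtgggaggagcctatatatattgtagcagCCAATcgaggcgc

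CCAAT and CHR matches stood together in the promoters of the late-cycle genes shown and in that of Mcm2. Kif11, the spindle motor, held a CCAAT box 45 bases and a CHR match 19 bases before its start. Mki67, the Ki-67 protein that coats mitotic chromosomes, held 3 CCAAT boxes and 2 CHR matches, the CHR matches 116 and 98 bases before the start. Ccnb2, cyclin B2, held 3 CCAAT boxes 87, 54 and 21 bases before the start and a CHR match farther out at 167. Cdk2 held an E2F match, GCGGGAAA on this strand, 140 bases before its start. Cdk4 had no match in the stretch shown.

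Over windows from 250 bases before to 50 bases after each start, counting any start of a gene, 12 of the 29 genes (41.4%) held a CHR match, against 19.8% of 17274 protein-coding genes. An E2F match was found for 7 of 29 (24.1%) against 3.33%, and CCAAT for 21 of 29 (72.4%) against 42.7%. The shares among the 7654 genes with a start region called in all 9 lists were 16.3%, 5.46% and 45.2%. By role, of 8 mitotic genes 7 held a CHR match (Mki67, Top2a, Aurka, Plk1, Bub1, Kif11 and Cdc20) and 0 an E2F match. Of 6 replication genes 4 held an E2F match (Cdc6, Mcm3, Mcm5 and Mcm7) and 2 a CHR match (Mcm2 and Mcm7). Of 4 G1-S genes 1 held a CHR match (E2f2) and 2 an E2F match (Cdk2 and E2f2), and of 3 S-G2-M genes 2 held a CHR match (Ccnb2 and Cdk1) and 1 an E2F match (Cdk1). None of the 3 G1 cyclin and kinase genes, the 2 nucleotide synthesis genes or the 3 inhibitors held either. No test of a difference between roles was made. These matches describe letters in the window and not binding.

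**Figure D1:**
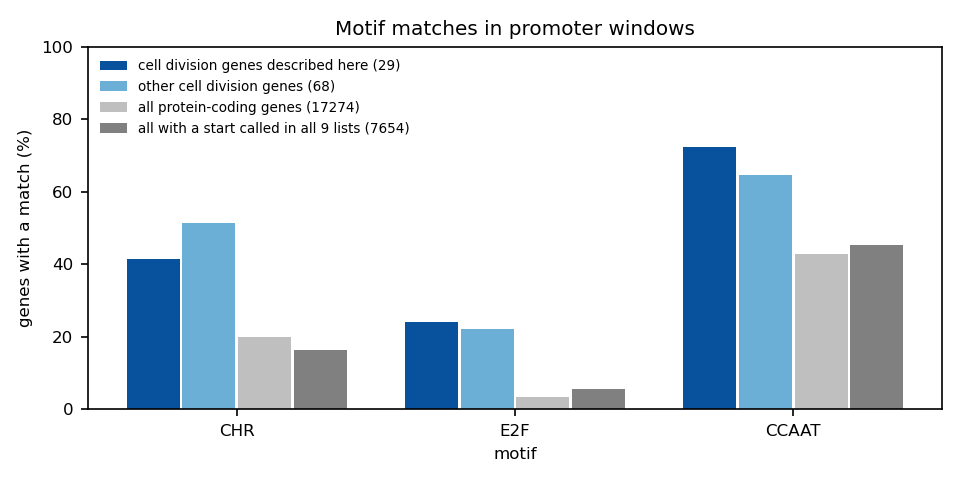
Share of genes (%, vertical axis from 0) with at least 1 match to each motif in the promoter window, for the 29 cell division genes, 68 other cell division genes, all 17274 protein-coding genes and the 7654 with a start called in all 9 lists. The cell division genes stand above both backgrounds for CHR (41.4%), E2F (24.1%) and CCAAT (72.4%).

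Most cell division genes had an open start in every list, on every day. A region within 1 kb of the gene's own start was called in all 9 lists for 26 of 29 genes (89.7%), against 7654 of 17274 genes (44.3%). The other cell division genes, 86 genes described as a set further below, gave 62 of the 68 with a start entry (91.2%). The exceptions were E2f2, Tyms and Cdkn1a. Of the 6 genes without a start entry, 5 had a region over a gene end called in all 9 lists, and Ccna2 (cyclin A2) had one inside the gene at chr3:36571472-36572516. For 13 genes (Cdk4, Ccne2, Cdk2, E2f1, Mcm2, Pcna, Ccna2, Foxm1, Top2a, Aurka, Plk1, Birc5 and Cdc20) such a region was the only one at the locus, and Mcm3, Mcm7 and Cdkn2c had 2 each, so 16 of 35 loci looked the same by calls in all 9 lists. A single-region locus was seen for 37.1% of these genes and for 22.4% of all genes. The shares are not on a like footing, because 25.7% of all genes had no region and each of the 35 had at least 1.

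By calls, 52 of the 141 regions (36.9%) were in all 9 lists, against 24.0% of all regions. In 26 (18.4%, against 19.2%) the region was called in all lists of days 8 and 21 and none of day 4. Another 46 (32.6%, against 43.7%) were in no list of day 4 and in some later lists, and 17 (12.1%, against 13.1%) were in some list of day 4 but not all 9. The always-called regions had a median width of 1046 bp, and the 26 that came on after day 4 a median of 518 bp. Over all regions these medians were 951 and 502 bp. Of the 26, 2 lay within 1 kb of a start (7.69%), near the 8.23% of all regions with such calls.

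**Figure D2:**
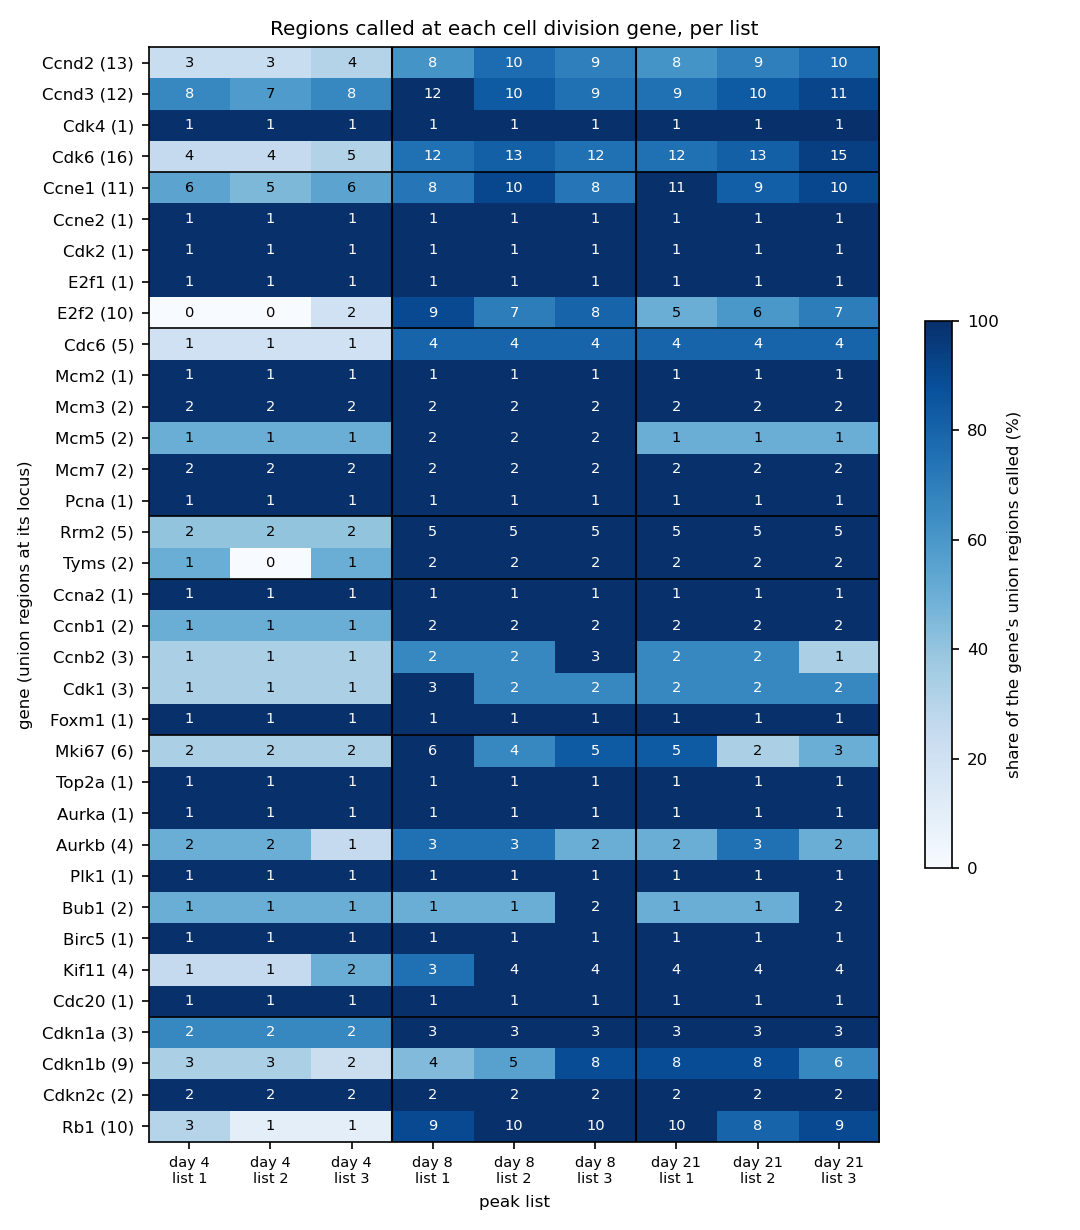
Regions called at each of the 35 genes (rows, with the number of regions at the locus in brackets, black lines between role groups) in each of the 9 lists (columns). Numbers are called regions and colour is their share of the locus (%). E2f2 has 0, 0 and 2 called regions on day 4 against 9, 7 and 8 on day 8, and 16 genes show the same full count in every list.

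Between day 4 and day 8 the number of called regions at these loci went from 62, 57 and 63 to 117, 118 and 119, and on day 21 it was 115, 113 and 118. The ratio of the means of day 8 to day 4 was 1.94, below the 2.46 of all regions. As a share of a list's called regions the loci made up 0.319% ± 0.0161 on day 4, 0.252% ± 0.00791 on day 8 and 0.248% ± 0.011 on day 21 (mean ± SD, n = 3 lists). The role groups spanned 1.5 for replication licensing and fork genes, 1.61 for mitotic genes, 1.73 for the S-G2-M cyclins, Cdk1 and Foxm1, 2.01 for G1 cyclins and kinases, 2.11 for the G1-S group, 2.44 for inhibitors and 2.62 for nucleotide synthesis. Regions called in all 9 lists made up 8 of 13 for replication, 10 of 21 for mitosis and 5 of 10 for the S-G2-M group. The counts were 13 of 42 for G1 and 8 of 24 for the G1-S group. Inhibitors had 7 of 24 and nucleotide synthesis 1 of 7, where all regions gave 24.0%.

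Regions called in 3 of 3 lists of a later day and 0 of 3 of an earlier one are named gained, and the opposite lost. Day 8 against day 4 gave 35 gained (24.8%) and 0 lost of 141 regions, where all regions gave 25.7% gained and 0.00953% lost. Day 21 against day 4 gave 36 gained (25.5%) and 0 lost, where all regions gave 25.3% and 0.00794%. These shares are near the background. The gained regions were uneven between loci, with 6 at Cdk6, 6 at Rb1 and 5 at E2f2, together 17 of the 35, while 18 genes had none. Cdk6, Rb1 and E2f2 had 16, 10 and 10 regions in all. In 16 of the 18 genes every region was called in all 9 lists, so none could be gained. Of the 35 regions gained on day 8, 26 were called in all lists of day 21.

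Peak strength was compared through ranks. Each of the 15109 regions called in all 9 lists was ranked within its list by the authors' fold enrichment, ranks were turned into normal scores, and limma tested the difference between days, with Benjamini-Hochberg adjustment over all 15109 and a threshold of 0.05. A normal score of 0 is the median of a list and 1 lies 1 standard deviation above it. Day 8 against day 4 called 4 of the 52 member regions higher (7.69%, background 12.9%) and 11 lower (21.2%, background 15.4%). At starts the calls were 1 higher and 7 lower of 33, where the 7081 start regions of all genes gave 8.16% higher and 19.4% lower. The 33 hold 28 regions within 1 kb of a start and 5 over an end of a gene without a start entry. The 7081 hold only regions within 1 kb of a start. The median difference at member starts was -0.27, against -0.151 for all start regions, and the counts of calls are near the background. Day 21 against day 4, which shares the day 4 lists with the first comparison, called 6 higher (11.5%, background 14.7%) and 12 lower (23.1%, background 17.2%). At starts there were 3 higher and 8 lower of 33, against 7.34% and 23.2% of all start regions.

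**Figure D3:**
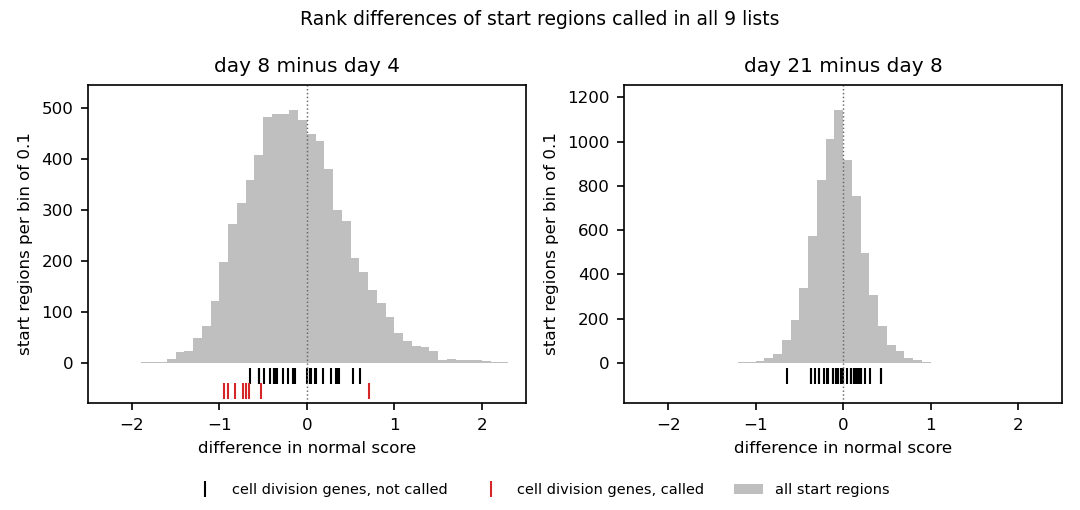
Difference in normal score (horizontal axis) of start regions called in all 9 lists, for day 8 minus day 4 (left) and day 21 minus day 8 (right). Grey bars count all 7081 start regions in bins of 0.1, and ticks under the bars are the 33 start regions of cell division genes, red where limma called them. Of the 33, 5 lie over an end of a gene without a start entry, a kind that the bars leave out. On the left, 7 of the red ticks lie below 0 and 1 above; on the right no tick is red.

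Among the G1 kinases and cyclins, Cdk6, partner of the D cyclins, held the largest rises in rank. Its intronic region at chr5:3383439-3384294, 39.5 kb from the start, stood at percentiles 43.9, 44.5 and 59 in the day 4 lists, 73.5, 85.5 and 90.6 on day 8 and 93, 79.3 and 93.1 on day 21. All later values lay above all day 4 values. The normal score rose by 1.02 ± 0.244 (SE) on day 8 (limma, adjusted p = 0.00702) and by 1.28 on day 21 (adjusted p = 0.0016). Another region at chr5:3420817-3421357, 76.9 kb from the start, went from 3.02, 23.1 and 17.7 to 66.6, 67.5 and 33.9 and then 75.2, 43.5 and 62.3, a rise of 1.34 on day 8 (adjusted p = 0.00735). Both rises were called without each list in turn, but on day 8 they missed the threshold when regions were ranked by -log10 p (0.44, adjusted p = 0.164 and 0.85, adjusted p = 0.0795). The Cdk6 start itself stayed low in the ranks, at percentiles 2.21 to 13.7 over the 9 lists.

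Calls at the whole Cdk6 locus numbered 4, 4 and 5 of 16 regions on day 4, 12, 13 and 12 on day 8 and 12, 13 and 15 on day 21. Relative to list totals the log2 difference was 0.11 on day 8 (adjusted p = 0.572). Cyclin D2 (Ccnd2) was similar, with 3, 3 and 4 of 13 regions, then 8, 10 and 9, then 8, 9 and 10, a log2 difference of 0.012 (adjusted p = 0.959). Its distal region chr6:127245716-127246424, 93.5 kb from the gene, rose from percentiles 56.1, 56.1 and 57.6 to 87, 71.4 and 92.8 on day 8, a difference of 0.89 (adjusted p = 0.00977; 0.0552 without list 3 of day 8), and stood at 90.7, 89 and 87.4 on day 21 (adjusted p = 0.00292).

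Cdk4, the other D cyclin kinase, moved the other way. Its only region, at the start (chr10:127063078-127064055), fell from percentiles 46.5, 56.7 and 36.1 on day 4 to 23.7, 19 and 19.2 on day 8, and stood at 16.3, 14.1 and 14.9 on day 21. No later list reached a day 4 value. The differences were -0.73 ± 0.2 (adjusted p = 0.0162) and -0.94 (adjusted p = 0.00343). The day 8 call was lost without list 2 (adjusted p = 0.0564) or list 3 (0.059) of day 8, by the -log10 p rank (0.0821) and when peaks had to cover at least 50% of a region (0.0639), and the day 21 call was kept under every alternative tried.

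Cyclin D3 (Ccnd3) had the most always-called regions of any member, 7 of its 12. An intronic one at chr17:47507744-47508560 fell from percentiles 20.8, 15.6 and 18.2 to 6.94, 6.5 and 4.66 (difference -0.65, adjusted p = 0.0259), and the call was lost without list 1, 2 or 3 of day 8 (adjusted p = 0.0582, 0.0658 and 0.102) or by the -log10 p rank (-0.27, adjusted p = 0.463). On day 21 it stood at 7.5, 7.69 and 5.19 (adjusted p = 0.0366), a call lost without list 1 of day 4 or any list of day 8 or 21 (adjusted p = 0.0533 to 0.13), by the -log10 p rank (-0.42, adjusted p = 0.212) or with stricter peaks, of -log10 q of at least 4 (0.0717). A neighbour at chr17:47511086-47511546 fell on day 8 (-0.70, adjusted p = 0.0336), which was lost without list 1 or 2 of day 4 (0.0545 and 0.067) and without list 1 or 3 of day 8 (0.116 and 0.101), by the -log10 p rank (0.173), with the stricter peaks (0.0648) and with peaks over at least 50% of the region (-0.38, adjusted p = 0.142). On day 21 that region was at -0.28 (adjusted p = 0.367).

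**Figure D4:**
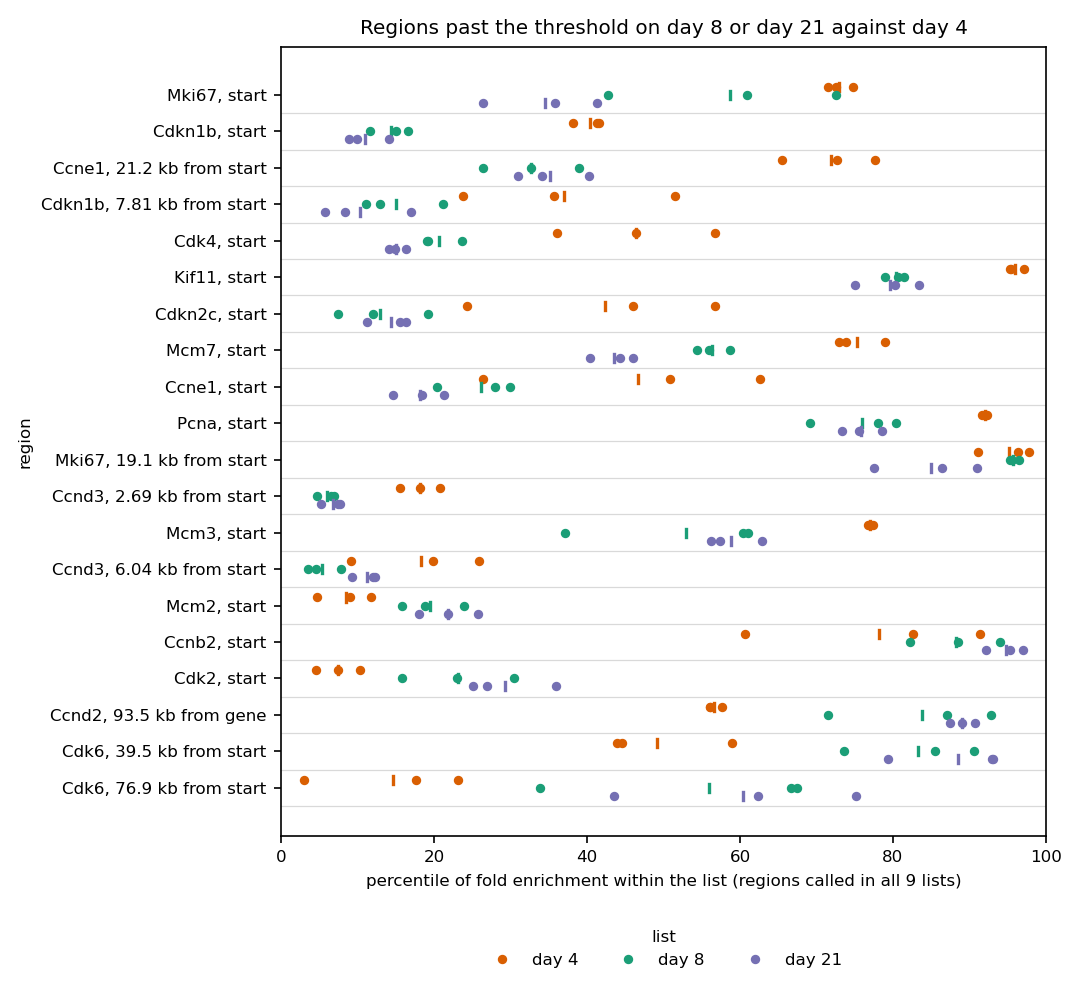
Percentile of fold enrichment within each list (horizontal axis, among the regions called in all 9 lists) for each of the 20 member regions past the threshold on day 8 or day 21 against day 4. Points are single lists, vertical bars are day means, and distances in kb are from the gene's start or, for Ccnd2, the gene. The 2 Cdk6 regions and the Ccnd2 region lie to the right of day 4 on both later days, and the Kif11 start falls from 95.3 or more to 83.4 or less.

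In the G1-S group, cyclin E1 (Ccne1) held the only member rank difference from day 4 to day 8 that was called under every alternative tried. A region 21.2 kb from its start, chr7:38084564-38086255, fell from percentiles 77.7, 72.6 and 65.5 to 26.4, 38.9 and 32.6 on day 8 and stood at 31, 40.3 and 34.1 on day 21. The difference was -1.04 ± 0.2 on day 8 (adjusted p = 0.00205) and -0.97 on day 21 (adjusted p = 0.00237). The day 4 values stood apart from all 6 later ones. The Ccne1 start was at 62.6, 26.4 and 50.9, then 30, 20.4 and 27.9, then 14.6, 21.3 and 18.4. It fell on day 21 (-0.82, adjusted p = 0.0188), which was lost without list 1 of day 4 (0.057), list 1 of day 21 (0.0686) or list 3 of day 21 (0.0542), by the -log10 p rank (-0.39, adjusted p = 0.238), and when peaks had to cover at least 50% of a region (adjusted p = 0.0686). Cdk2, the cyclin E kinase, whose start region also lies in Pmel, rose from 4.51, 10.3 and 7.49 to 22.9, 30.5 and 15.8 (0.72, adjusted p = 0.0241) and stood at 35.9, 25.1 and 26.9 on day 21 (0.92, adjusted p = 0.00585). The day 8 call was lost without list 1 of day 4 (0.0824) or without list 1 or 2 of day 8 (0.0677 and 0.109). By the -log10 p rank neither rise was called, with 0.15 on day 8 (adjusted p = 0.792) and 0.25 on day 21 (adjusted p = 0.634). Cyclin E2 (Ccne2) and E2f1 were not called, with day 8 differences of 0.0045 and -0.15.

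E2f2, an activating E2F factor, was the member with the largest difference in called regions relative to list totals. Its 10 regions were called 0, 0 and 2 times in the day 4 lists, 9, 7 and 8 times on day 8 and 5, 6 and 7 times on day 21. All later counts lay above those of day 4. The number of called regions per gene was tested with limma on log2((called + 0.5) / list total relative to the mean over lists), over the 7835 genes with at least 3 regions, 15 of them members. E2f2 rose by 2.00 ± 0.41 on day 8 (adjusted p = 0.00117) and by 1.62 on day 21 (adjusted p = 0.006). The rise on day 8 was called without each list in turn, and it was 2.96 (adjusted p = 2.52e-09) when each list was cut to its 19499 strongest peaks. The day 21 call was lost without list 2 of day 4 (1.28, adjusted p = 0.0896). The start whose promoter is printed above lay in a region at chr4:136172050-136172403. No day 4 list, all 3 day 8 lists and 2 of 3 day 21 lists called that region. Only list 3 of day 4 and list 1 of day 8 called chr4:136172852-136173210, another region 0.578 kb from the same start. Within 1 kb this start thus had a called region in 1 day 4 list. The other start had a region at chr4:136179990-136180756 in 0, 3 and 3 lists.

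**Figure D5:**
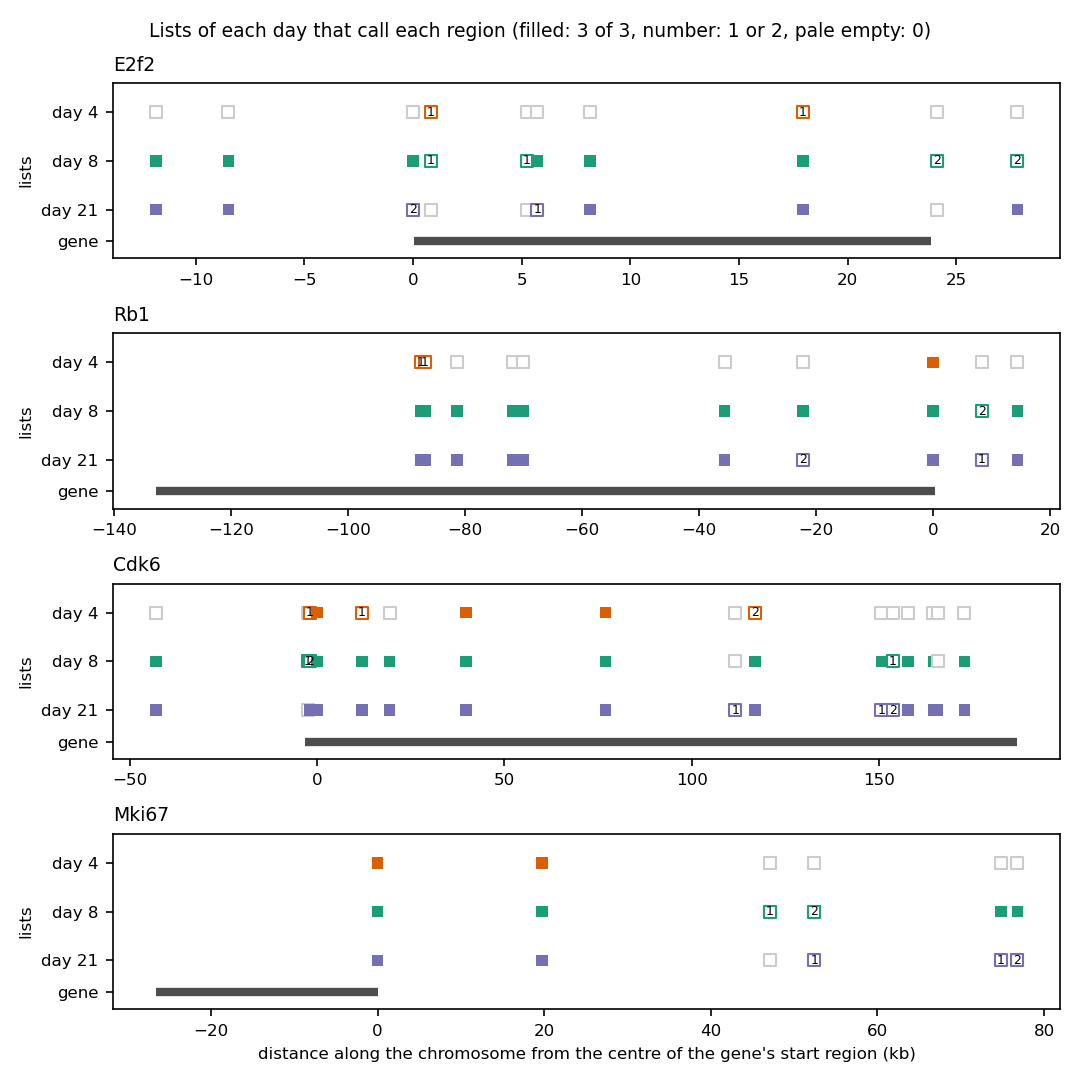
Regions at E2f2, Rb1, Cdk6 and Mki67 (squares) by distance along the chromosome from the centre of the start region (kb), with 1 row per day and the gene body as a grey bar. Filled squares were called in 3 of 3 lists, numbers give 1 or 2 lists, pale empty squares 0, and neighbouring squares can overlap. Day 4 has no filled square at E2f2 and 1 at Rb1, against 6 and 9 on day 8.

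Replication licensing and fork genes had 8 called regions in each day 4 list, 12 in each day 8 list and 11 in each day 21 list. Mcm2, Mcm3, Mcm7 and Pcna had all their regions in all 9 lists, and Cdc6, which loads the helicase, had 1 of 5 regions in every day 4 list and 4 of 5 in every later list. A region 23 kb from the start of Mcm5, chr8:75132549-75132832, was called in 0, 3 and 0 lists on days 4, 8 and 21. The start of Pcna, the sliding clamp, in a region shared with Cds2, fell from percentiles 92.1, 92.3 and 91.7 to 80.4, 78.1 and 69.2 on day 8 (-0.70 ± 0.189, adjusted p = 0.0136; 0.0667 without list 3 of day 8) and stood at 75.5, 73.3 and 78.6 on day 21 (adjusted p = 0.0113). It missed the threshold by the -log10 p rank (-0.11, adjusted p = 0.725 on day 8 and -0.092, adjusted p = 0.778 on day 21). The Mcm3 start fell from 77.3, 76.7 and 76.9 to 37.1, 60.4 and 61.1 on day 8 (-0.67, adjusted p = 0.0257), which list 1 of day 8 decided (0.126 without it), and stood at 62.9, 56.2 and 57.3 on day 21 (-0.51, adjusted p = 0.0682).

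Mcm7 had 2 start regions called in all 9 lists, and the one at chr5:138171690-138172619 is shared with Ap4m1. The unshared one, chr5:138170853-138171468, was not called (-0.42, adjusted p = 0.172 on day 8 and -0.11, adjusted p = 0.73 on day 21). The shared region stood at 73, 78.9 and 73.9 on day 4, 58.8, 54.4 and 56 on day 8 and 44.4, 46 and 40.3 on day 21, with no overlap between any of the days. It fell by 0.85 on day 21 (adjusted p = 0.00314, called under every alternative), and the day 8 difference of -0.52 (adjusted p = 0.0423) was lost without any 1 list other than list 1 of day 4 (adjusted p = 0.0532 to 0.111), by the -log10 p rank (-0.11, adjusted p = 0.72) and when peaks had to cover at least 50% of a region (0.103). It was also not called with the replicate number as a block (0.0586). Mcm2 went the other way, from 9.05, 11.8 and 4.71 to 18.8, 23.9 and 15.8 and then 21.8, 25.8 and 18. Its rise of 0.62 on day 21 (adjusted p = 0.0381) was lost without any 1 list other than list 2 of day 4 (adjusted p = 0.0523 to 0.122), and all 6 later values lay above day 4. The starts of Cdc6 and Mcm5 ranked high in all lists, at 68.2 to 94.2 and 75.9 to 88.7, and were not called.

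For nucleotide synthesis, thymidylate synthase (Tyms) had no region called in all 9 lists. Its start region chr5:30072925-30073866 was in 2, 3 and 3 lists of days 4, 8 and 21, and a distal one at chr5:30037522-30038099 in 0, 3 and 3. Ribonucleotide reductase M2 (Rrm2) had 2 of 5 regions in every day 4 list and 5 in every later one, a log2 difference of -0.17 relative to list totals (adjusted p = 0.569). Its start ranked at 12.5 to 56.3 and was not called.

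In the S-G2-M group, the starts of Ccnb1, Ccnb2 and Cdk1 were called in all 9 lists. The region inside Ccna2 ranked at 84.3 to 95.8 in all lists, and Cdk1, the mitotic kinase, at 89.4, 79.1 and 78.6, then 79.5, 67.5 and 53.8, then 68.1, 63.4 and 65.3, without a call (-0.49, adjusted p = 0.109 on day 8). The Ccnb2 start stood at 91.4, 82.6 and 60.6 on day 4, 94, 82.2 and 88.5 on day 8 and 92.1, 97.1 and 95.3 on day 21. It rose by 0.80 on day 21 (adjusted p = 0.0347), a call lost without list 2 (0.0591) or 3 (0.151) of day 4 and without list 2 (0.116) or 3 (0.0872) of day 21. It was not called on percentiles in place of normal scores (0.0598) or by the -log10 p rank (0.14, adjusted p = 0.693). Ccnb1, Cdk1 and Ccnb2 each gained 1 region away from the start on day 8, at chr13:100790160-100790639, chr10:69321247-69321592 and chr9:70416374-70416715, the last in 2 of 3 lists on day 21. Foxm1, the factor for late cycle genes, had 1 region, shared with Rhno1, at 6.44 to 27.6.

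In the mitotic group, Kif11 and Mki67 were called. The Kif11 start (chr19:37375678-37376754) fell from percentiles 95.4, 95.3 and 97.1 to 78.9, 81.4 and 80.6 on day 8 and 83.4, 75 and 80.3 on day 21. The 3 day 4 values lay above all 6 later ones. The differences were -0.90 ± 0.19 (adjusted p = 0.0035) and -0.92 (adjusted p = 0.00249). Both were called without each list in turn, and the day 8 one missed the threshold by the -log10 p rank (-0.32, adjusted p = 0.237). The locus had 1, 1 and 2 of 4 regions called on day 4, 3, 4 and 4 on day 8 and 4 in each list of day 21.

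Mki67 passed the threshold on day 21 against day 4 and not on day 8. Its start (chr7:135715686-135717041) stood at 71.5, 72.5 and 74.8 on day 4, 72.5, 61 and 42.8 on day 8 and 35.8, 26.4 and 41.3 on day 21. Day 8 overlapped day 4, and day 21 lay below both. It fell by 1.02 ± 0.22 from day 4 to day 21 (adjusted p = 0.00346). The fall was called under each of the 13 alternatives in which the region could be tested. The step from day 8 to day 21 was -0.64 (adjusted p = 0.36). A region 19.1 kb from the start, chr7:135735452-135736731, was at 91.2, 96.3 and 97.8, then 95.2, 95.5 and 96.4, then 86.4, 91 and 77.5. It fell on day 21 (-0.66, adjusted p = 0.0367), which was lost without list 2 (0.0801) or 3 (0.126) of day 4 and without list 1 (0.0746) or 3 (0.153) of day 21, by the -log10 p rank (-0.32, adjusted p = 0.265) and when peaks had to cover at least 50% of a region (0.0676). Called regions went from 2 in each day 4 list to 6, 4 and 5 of 6 and then 5, 2 and 3. Relative to list totals the number fell by 0.75 on day 21 (adjusted p = 0.00657), but without division by the totals it was 0.54 higher, and without list 2 of day 21 the fall was not called (-0.51, adjusted p = 0.132).

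The remaining mitotic genes were not called by rank. The starts of Cdc20, the activator of the anaphase-promoting complex, Aurka, Top2a and Bub1 ranked at 73.8 to 89.8, 71.3 to 94.3, 52.3 to 86.9 and 55.2 to 95.5, and Birc5 (survivin), Plk1 and Aurkb ranked lower, at 19.6 to 77.4, 9.74 to 51.4 and 9.72 to 44.2. Aurkb, the kinase of the chromosomal passenger complex, had 2, 2 and 1 of 4 regions called on day 4, 3, 3 and 2 on day 8 and 2, 3 and 2 on day 21. Relative to list totals this was -0.73 on day 8 (adjusted p = 0.0453), and without division 0.57. With every region called the locus could have reached no more than -0.21 on day 8 and -0.20 on day 21. The day 8 call was lost without list 1 or 2 of day 4, any list of day 8, or list 2 of day 21 (adjusted p = 0.0569 to 0.236). It was also lost with the replicate number as a block (0.0619) and without a lower bound on the residual SD (0.0599). The day 21 call (-0.88, adjusted p = 0.0142) was lost without list 1 or 2 of day 4 or list 1 or 3 of day 21 (adjusted p = 0.0542 to 0.118).

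Among the inhibitors, Rb1, the retinoblastoma protein, gained the most calls. Its 10 regions were called 3, 1 and 1 times on day 4, 9, 10 and 10 times on day 8 and 10, 8 and 9 times on day 21. Relative to list totals it rose by 1.05 ± 0.18 on day 8 (adjusted p = 5.12e-07) and 0.96 on day 21 (adjusted p = 4.84e-06), and both rises were also called without each list in turn. Among the 19499 strongest peaks of each list the difference on day 8 was -0.49 (adjusted p = 0.547). The gained regions lay mostly inside the gene, and 2 regions called in 1, 3 and 3 lists lie in Lpar6, a gene within an intron of Rb1. The region over the Rb1 gene end at chr14:73324962-73326361 was called in all 9 lists at percentiles 23.3 to 36.6.

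The inhibitor p27 (Cdkn1b) went down in rank at its start (chr6:134919816-134920863), from 41.3, 41.6 and 38.2 to 16.6, 15.1 and 11.6 on day 8 and 8.86, 14.1 and 9.96 on day 21. It fell by 0.82 ± 0.2 on day 8 (adjusted p = 0.00728) and 0.99 on day 21 (adjusted p = 0.00203). Both falls were called without each list in turn, but not by the -log10 p rank (-0.43, adjusted p = 0.15 and -0.38, adjusted p = 0.203). A region 7.81 kb from the start, chr6:134928210-134929297, was at 51.5, 23.8 and 35.6, then 11.1, 21.1 and 12.9, then 16.9, 5.77 and 8.4. It fell by 0.95 on day 21 (adjusted p = 0.00945), and its day 8 call (-0.70, adjusted p = 0.0453) was lost without list 1 or 3 of day 4, any list of day 8, or list 2 or 3 of day 21 (adjusted p = 0.0527 to 0.14). By the -log10 p rank neither was called (-0.39, adjusted p = 0.289 and -0.65, adjusted p = 0.0651), and the day 8 call was also lost with the stricter peaks (0.0576), with peaks over at least 50% of the region (-0.42, adjusted p = 0.162) and with a replicate block (0.0503). Calls at the locus numbered 3, 3 and 2 of 9 on day 4, 4, 5 and 8 on day 8 and 8, 8 and 6 on day 21. The step from day 8 to day 21 was 0.40 (unadjusted p = 0.0364, adjusted p = 0.849 in limma).

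The start of p18 (Cdkn2c) fell from 46, 56.7 and 24.3 to 19.2, 12 and 7.5 on day 8 (-0.95, adjusted p = 0.011; 0.059 without list 3 of day 8). On day 21 it stood at 15.6, 11.3 and 16.3 (-0.86, adjusted p = 0.0166; 0.0613 without list 2 of day 21), and by the -log10 p rank this was not called (-0.50, adjusted p = 0.192). For p21 (Cdkn1a), RefSeq gives starts at positions 29090979 and 29093769 of chromosome 17. No list had a region within 1 kb of the first, and the region at the second, chr17:29093518-29093883, was called in 0, 3 and 3 lists. Cdkn1a thus had 2 of 3 regions called in each day 4 list and 3 in each later one. Relative to list totals this gave -0.82 on day 8 (adjusted p = 0.00727), the highest value the locus could reach, and 0.49 without division.

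Counted over genes, day 8 against day 4 called 2 of the 15 tested members higher (13.3%, background 13.1%), E2f2 and Rb1, and 4 lower (26.7%, background 20.3%), Ccnd3, Ccne1, Aurkb and Cdkn1a. All 4 had a higher mean number of called regions on day 8 than on day 4 and were lower only relative to list totals, with 0.40, 0.57, 0.57 and 0.49 without division. For Ccnd3 the calls were 8, 7 and 8, then 12, 10 and 9, then 9, 10 and 11 of 12, and for Ccne1 6, 5 and 6, then 8, 10 and 8, then 11, 9 and 10 of 11. Their log2 differences were -0.90 (adjusted p = 2.42e-08) and -0.73 (adjusted p = 3.11e-05). Even with every region called on day 8 they could have reached no more than -0.69 and -0.40. For Aurkb and Cdkn1a this limit was -0.21 and -0.82. None of the 4 could thus have come out higher, so these lower calls do not show a direction of change at the loci. Day 21 against day 4, with the same day 4 lists, called E2f2 and Rb1 higher (13.3%, background 12.5%) and 5 lower (33.3%, background 19.1%), the same 4 and Mki67. On day 21 the limits of the same 4 were also negative, from -0.80 for Cdkn1a to -0.20 for Aurkb. That of Mki67 was 0.088. The median over the 15 members was -0.18 on day 8, against -0.14 over all 7835 genes.

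From day 8 to day 21 no member passed a threshold. By rank, limma called 0 of 52 regions (background 0.0199%), with 3 at an unadjusted p under 0.05, and by called regions 0 of 15 genes (background 0.191%), with 2 at an unadjusted p under 0.05, Mki67 (-0.57, 0.0141) and Cdkn1b (0.40). The 1 region gained was at chr5:3509562-3509832 in Cdk6 (0, 0 and 3 lists), where all regions gave 1.02%. The 1 region lost was the Mcm5 region named above, where all regions gave 1.09%. A miss of the threshold does not show that ranks or calls stayed the same between these days.

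The 86 other cell division genes, further members of the same machinery, had 255 regions, 104 of them called in all 9 lists. On day 8 against day 4, 10 were higher (9.62%, background 12.9%) and 23 lower (22.1%, background 15.4%) by rank. Of these 104 regions 65 lay at starts, where 9.23% were higher and 26.2% lower, against 8.16% and 19.4% of all start regions. The largest falls were in regions over a gene end of Hmgb2, a chromatin protein of dividing cells (-1.27, mean percentile 98.2 on day 4, 80 on day 8 and 61.2 on day 21), E2f5 (-1.19) and Dbf4, the partner of Cdc7 (-1.14). The largest rises were at Cdk7 (1.28), outside Gmnn, which encodes the licensing inhibitor geminin (1.15), and at Espl1, separase (1.07). On day 21 against day 4, 9 were higher (8.65%, background 14.7%) and 27 lower (26.0%, background 17.2%), with the largest differences at Hmgb2 (-1.83), E2f5 (-1.20) and Wee1 (-1.18) and at Tpx2 (1.38), Espl1 (1.33) and Gmnn (1.22). By called regions, 1 of 35 tested genes, Cenpf, was higher on day 8 (0.44; 2.86%, background 13.1%) and 11 were lower relative to list totals (31.4%, background 20.3%). The lowest were Ndc80 (-1.30), Gmnn (-1.14) and Rpa1 (-0.84), which with every region called could have reached no more than -1.30, -0.82 and -0.65. Ndc80 had all 3 of its regions called in every list, and without division Gmnn was at 0.16 and Rpa1 at 0.46. No region or gene of this list was called between days 8 and 21.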

How the data were processed

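ATAC-seq peak lists of 9 libraries (3 per day) were analysed, grouped by sample title because the labels' genotype and time point tags hold each other's values. The submitters' processing notes name mm10, deepTools 2.0, MACS2, Picard and BWA 0.7.15, without their roles. Read filters, Tn5 shift and peak calling settings were not given in the sources used. The deposited lists hold 1 row per peak with a score, a summit fold enrichment (a ratio over local background) and -log10 p and -log10 q, and each list belongs to 1 library, so peaks were called per sample. Read totals are not in the lists, so depth was described by the smallest local background, recovered from the deposited fold and -log10 p.

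Regions were merged, assigned to RefSeq genes (GRCm38.p6) and counted as described. Ranks and counts were modelled in R 4.3.3 by limma 3.58.1, using its trend and robust options and a term for each day across the 9 lists. For counts, each gene's residual SD was raised to at least that of 1 region called with probability 0.5, a pseudocount of 0.5 was used, and genes with fewer than 3 regions were not tested. Both fits were tested on simulated data, where, with few regions changed, the rank fit found large shifts and missed most shifts of the size of the differences given here. Python 3.11.15, numpy 2.4.6, pandas 2.3.3, scipy 1.17.1 and matplotlib 3.10.9 did the rest.

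Members, lists and rules were chosen with earlier results of these data known. Members given with the value in every list were those with a call, a gained or lost region, or no always-called region; promoters printed are a selection of members with a called or missing start region. Alternatives were another ranking value, stricter peaks, equal list length, other pseudocounts and minimums, no division by list totals, a replicate block and leaving out each list. Others included no lower bound on the residual SD in the count fit. With each day's mean taken out, same-numbered lists of different days correlated at -0.002 to 0.031 in rank and -0.029 to 0.061 in counts. Differently numbered lists gave -0.025 to 0.021 and -0.041 to 0.02, so the numbers gave little sign of pairing the lists.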

Additional observations from a re-analysis of the deposited data

How the results depend on the processing

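Member calls by rank were 15 on day 8 and 18 on day 21 against day 4, of 52 regions. Over all 15109 regions 28.4% and 32.0% were called. Member calls became 7 and 10 of 52 with ranks by -log10 p, where the shares over all regions were 15.7% and 16.7%. Of the 22 regions left when a list's peaks had to cover at least 50% of a region, 6 and 10 were called (all regions 29.4% and 31.0%). Leaving out 1 list gave 7 to 15 and 14 to 18 (all regions 18.5% to 27.4% and 21.5% to 30.7%). Without list 1 or 3 of day 8, the day 8 calls were 9 and 7 (all regions 20.4% and 18.5%). Calls by number of regions were 6 and 7 of 15 genes, where all genes gave 33.4% and 31.7%. They became 13 and 11 (all higher) with no division by list totals. That moved the median of all genes to 1.17 and 1.14 and their calls to 80.1% and 78.7%. With the 19499 strongest peaks of each list they were 1 and 2 of 8 genes (all genes 5.7% and 5.38%). With a minimum of 1 region they were 23 and 25 of 35 (all genes 44.4% and 44.2%). Without 1 list they ranged from 5 to 7 in each case (all genes 24.1% to 31.3% and 23.1% to 29.5%). Gained or lost regions, 35 and 36 of 141, became 5 and 3 of 78 with the strongest peaks. The 5 were 4 gained and 1 lost, and the 3 were all gained. Without 1 list the gained or lost regions were 36 to 42 and 37 to 39. From day 8 to day 21 these were 2, then 1 with stricter peaks, 0 with the strongest peaks, and 2 to 6 without 1 list (4 without list 1 and 6 without list 3 of day 8, 6 without list 3 of day 21). For gained or lost regions, the shares over all regions were not computed under these alternatives.

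With no division by list totals the direction turned for Ccnd3 (0.401 on day 8, 0.361 on day 21), Ccne1 (0.569, 0.768), Aurkb (0.569, 0.407), Cdkn1a (0.485, 0.485) and, on day 21, Mki67 (0.541). With the strongest peaks it turned on day 8 for Ccne1 (0.0626) and Rb1 (-0.494). Dividing by list totals sets which way a locus with few closed regions can go. Why the other alternatives moved results was not tested. None of the single rank values turned. The 5 rank calls on day 8 that held without each list were both Cdk6 regions, the Cdkn1b and Kif11 starts and the distal Ccne1 region.

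A fit with a replicate block, for numbers that the lists only share, gave 13 and 18 calls by rank and 5 and 7 by number of regions. All regions gave 27.8% and 31.7% by rank, and all genes 31.2% and 29.8% by number of regions. The depth of the libraries is known only through their peaks.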
